A study of Mus musculus with 51 samples.

Results

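The sites described here are distal open chromatin sites of mouse male germ cells that lie where the authors' genome segmentation carries state 11. They were taken from a table of regions found open by ATAC-seq, a method in which a transposase cuts accessible DNA, in 2 strains. A region was kept when it was autosomal, lay more than 1 kb from every annotated transcription start site (TSS, GENCODE M21), overlapped neither of the 2 lists of DMC1 peaks nor the list of HELLS peaks, and had its midpoint in state 11. This left 5802 sites out of 81887 regions in the table and out of 49831 distal sites of all 11 states. State 11 covered 42% of the autosomes and held 99.9% of their unsequenced (N) bases, where no read can map. Which marks define each state is not given in the sources used here. Per the labels, the segmentation drew on C57BL/6J libraries of H3K4me1, H3K27me3, H3K9ac, H3K27ac, H2B120ac and H2A.Z.

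PRDM9 is a zinc-finger histone methyltransferase of meiotic prophase that binds DNA and marks the nucleosomes beside its sites. HELLS is a chromatin remodeller of the SNF2 family. Prdm9 alleles of different mouse strains have different zinc fingers and bind different sequences, and where SPO11 then breaks the DNA, the recombinase DMC1 loads on the broken ends. Open sites away from promoters are in general enhancers, insulators bound by CTCF, or, in these cells, PRDM9 sites. CTCF is a zinc-finger protein that organises chromosome loops.

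The series measured chromatin accessibility and histone marks in germ cells of several mouse backgrounds. C57BL/6J (B6) was compared with B6-Prdm9CAST-KI (KI), which carries the CAST allele of Prdm9 on the B6 background. Germ cells were enriched from testes at 12 to 14 days post-partum in all groups used here except the DMC1 peak lists, which came from whole testis of Hells het and Hells CKO animals of 6 weeks, and the HELLS peaks, which came from whole KI testis at 12 to 14 days. The other groups were Hells CKO and Hells wt (ATAC-seq and H3K4me3), Spo11/Spo11 (H3K9ac and H3K4me3), Spo11/+ (H3K4me3) and the (B6xCAST) F1 hybrid, which carries both Prdm9 alleles. The labels name neither the Cre driver of the Hells CKO nor whether animals were pooled, and no label says that libraries of a group came from separate animals. The spread behind each p-value is thus that between libraries and may be technical alone.

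Total counts in regions ran from 27952728 to 34572929 in the B6 and KI ATAC libraries (2 each), from 6416704 to 11352108 in the Hells ATAC libraries (3 CKO, 2 wt), from 13195275 to 30233934 for H3K9ac (3 B6, 2 KI, 1 Spo11/Spo11) and from 13321006 to 42007820 for H3K4me3 (3 Hells CKO, 1 Hells wt, 1 Spo11/+, 2 Spo11/Spo11). Each allele of an F1 library had between 3125377 and 5003968 counts. As a check of the labelled cell type, open promoters were found for 14 of 17 spermatogonial genes and 31 of 34 meiotic prophase genes, with summed levels of 578 to 770 and 1224 to 1558 CPM (read counts scaled to library size) over the 4 B6 and KI ATAC libraries. Promoters of other cells were open too: 16 of 20 Sertoli cell genes had one (407 to 470 CPM in sum), 5 of 9 Leydig cell genes (101 to 113), 10 of 14 peritubular, stromal and endothelial genes (179 to 206) and 1 of 9 blood and macrophage genes (13.9 to 16.5). Of 22 genes of neural and other lineages 14 had one as well (345 to 386), so that an open promoter alone does not mark a cell type here. No open promoter region within 1 kb was found for Ptprc, Spi1, Pecam1, Cyp11a1 and Insl3, among others. None was found either for Ccnd2, Nanos3 and Sall4 of the spermatogonial genes and Iho1, Rad21l and Zcwpw1 of the meiotic prophase genes. Of 24 pachytene and spermatid genes 16 had one (547 to 690 CPM in sum). The part of other cell types in the results was not tested. Fewer cells with an open site and less opening per cell cannot be told apart in bulk samples. The library numbers in the labels' descriptions run in separate ranges for B6 and KI, for ATAC and for H3K9ac, and the labels do not say what a range stands for. If it marks a batch, batch and strain cannot be told apart.

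Sequences of 6 state 11 sites are printed as examples, chosen by level, p-value or a CTCF motif. They do not stand for the whole of the 2 kinds of site described below. Each is 300 bases centred on the midpoint, from the plus strand of mm10 (RefSeq GRCm38). The first 4 are sites among those with the highest mean ATAC level, 3 of which are also among those with the lowest p, and all 4 were called higher in KI. They lie in introns of Dscam (chr16:96818765-96819064), Ptprn2 (chr12:116566052-116566351) and Plxna2 (chr1:194781817-194782116) and in the intergenic stretch nearest to Prlhr (chr19:60375895-60376194). Capitals in them mark GTCACA or its reverse complement TGTGAC, the 6-base word whose share differed most between the 2 kinds of site; Dscam and Ptprn2 have none in this window.
Dscam: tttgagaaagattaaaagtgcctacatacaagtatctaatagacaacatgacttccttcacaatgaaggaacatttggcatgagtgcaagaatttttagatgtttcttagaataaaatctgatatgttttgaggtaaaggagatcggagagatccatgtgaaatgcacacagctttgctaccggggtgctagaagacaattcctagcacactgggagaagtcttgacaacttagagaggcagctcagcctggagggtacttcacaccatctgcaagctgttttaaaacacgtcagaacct
Ptprn2: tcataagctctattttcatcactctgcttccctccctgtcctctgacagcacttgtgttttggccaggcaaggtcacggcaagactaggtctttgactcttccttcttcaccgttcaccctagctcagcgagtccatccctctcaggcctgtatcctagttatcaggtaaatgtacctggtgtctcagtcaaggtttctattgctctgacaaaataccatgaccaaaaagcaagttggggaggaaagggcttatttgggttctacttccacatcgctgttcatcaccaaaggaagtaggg
Prlhr: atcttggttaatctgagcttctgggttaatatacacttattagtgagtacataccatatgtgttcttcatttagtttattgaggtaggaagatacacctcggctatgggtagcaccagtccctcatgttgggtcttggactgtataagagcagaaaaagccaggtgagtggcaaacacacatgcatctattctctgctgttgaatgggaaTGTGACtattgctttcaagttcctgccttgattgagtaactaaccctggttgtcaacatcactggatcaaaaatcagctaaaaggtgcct
Plxna2: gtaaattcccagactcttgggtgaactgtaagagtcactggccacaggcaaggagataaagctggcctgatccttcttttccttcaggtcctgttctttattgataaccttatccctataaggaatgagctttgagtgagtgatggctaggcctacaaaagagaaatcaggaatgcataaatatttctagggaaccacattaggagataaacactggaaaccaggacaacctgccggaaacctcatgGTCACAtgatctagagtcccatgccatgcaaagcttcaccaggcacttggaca
The last 2 are the state 11 sites with the highest mean ATAC level among those that hold the CTCF core (CCA, any 2 bases, AG, any 2 bases, GGC, on either strand), and neither was called between B6 and KI. They are intergenic, nearest to Gm30790 (chr16:76786558-76786857) and to 4930591A17Rik (chr2:179193722-179194021). Capitals mark the core alone. The 4930591A17Rik window also holds TGTGAC, which is left in lower case.
Gm30790: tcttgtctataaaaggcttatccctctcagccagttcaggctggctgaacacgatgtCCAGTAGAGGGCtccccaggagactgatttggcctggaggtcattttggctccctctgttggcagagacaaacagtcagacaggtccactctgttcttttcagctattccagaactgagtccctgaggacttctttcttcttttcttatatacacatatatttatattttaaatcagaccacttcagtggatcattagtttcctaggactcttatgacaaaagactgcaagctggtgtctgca
4930591A17Rik: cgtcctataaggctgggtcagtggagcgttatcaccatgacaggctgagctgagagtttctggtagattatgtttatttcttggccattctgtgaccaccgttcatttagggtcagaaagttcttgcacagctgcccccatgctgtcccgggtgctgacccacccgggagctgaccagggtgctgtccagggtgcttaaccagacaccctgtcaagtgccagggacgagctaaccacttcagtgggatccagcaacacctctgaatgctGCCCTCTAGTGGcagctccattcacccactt

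The sites were narrow and set in wide stretches of the same state. Their width had a median of 456 bp (237 to 2473), against 571 bp for the 44029 distal sites of the other states. Introns held 51.7% of them (2997 sites) and intergenic DNA 45.4% (2632), while exons held 97 and untranslated regions 76. The median distance to a TSS was 15591 bp. State 11 filled 4387 of the sites whole (75.6%), and the segment around a midpoint had a median length of 8300 bp, where the segments of the other states' sites had 1000 bp. At 500 bp to either side, 88.1% of flanks were still in state 11, 5.64% in state 4 and 2.50% in state 5, and at 5000 bp 47.1% of the sites had state 11 on both sides. The sites were spread over all autosomes at 2.00 to 2.66 per Mb. CpG sites were few, with a median of 0.165 of the number that base composition gives, against 0.242 for the other states' distal sites and 0.289 for all autosomal regions.

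In KI germ cells, about 1 in 3 of these sites was more open than in B6, and none was called less open. Of 5802 sites tested, 1922 passed as higher in KI (33.1%), where 7.14% of all regions tested were called higher, and 0 passed as lower, where 2.27% of all regions were called lower (edgeR quasi-likelihood test, Benjamini-Hochberg adjustment over all 81887 regions, threshold 0.05). DMC1 peaks, which the rule leaves out, are therefore absent from both counts of members but not from the background. On the log2 scale, the median change was 0.35 for the sites, with quartiles at 0.10 and 2.20, 0.08 for the other states' distal sites and 0.02 for all regions. All 5802 sites passed the filter on low counts. Leaving out 1 library leaves 1 in its group, so only medians are given in this paragraph for these fits. The median of the sites was 0.55 without B6 replicate 1, 0.40 without B6 replicate 2, 0.38 without KI replicate 1 and 0.38 without KI replicate 2. Over all regions it was 0.03, 0.05, 0.03 and 0.0018 in the same order. With 1 B6 library left out, some sites were called lower, as were more of all regions, so the 0 rests on both B6 libraries. The table joins regions of both strains, so a site open only in KI can enter it, while the states come from B6 libraries alone. For the chromatin state the rule thus used B6 and not KI. The counts of higher and lower sites are therefore a description. Nothing is read from their distance to the shares over all regions.

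The sites fell into 2 heaps rather than along one slope. Log2 fold changes between 0 and 0.5 took 42.3% of the sites, those between 1 and 1.5 took 1.45%, and those between 2 and 3 took 548 and 590 sites in the 2 bins of 0.5, or 9.45% and 10.2%. Of the 1922 KI-higher sites, 1914 exceeded 1 on the log2 scale, the smallest change among them was 0.78, and their median was 2.60 (quartiles 2.21 and 3.01), which the call itself selects for. The other 3880 sites, called uncalled below, had a median of 0.18 (quartiles 0.0038 and 0.35). That they missed the threshold does not show that they were equal in both strains: 2921 of them (75.3%) lay above 0.

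**Figure D1:**
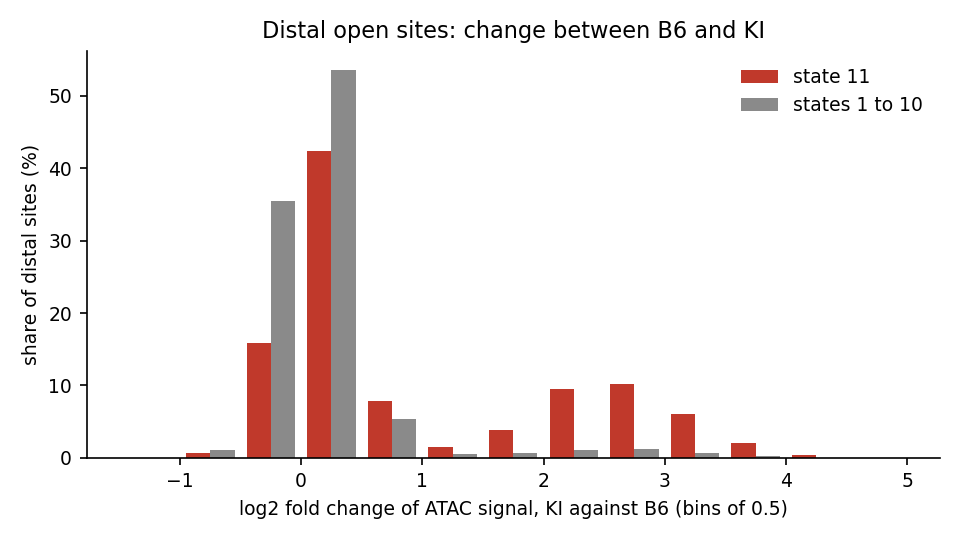
Share of distal sites (%) in bins of 0.5 of the log2 fold change of ATAC signal, KI against B6, for the 5802 sites of state 11 and the 44029 of states 1 to 10. State 11 has a second heap between 1.5 and 4, with 10.2% of its sites between 2.5 and 3 against 1.20% of the other states' sites.

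By library, the median level of KI-higher sites was 0.953 CPM in B6 replicate 1, 0.918 in B6 replicate 2, 5.62 in KI replicate 1 and 5.18 in KI replicate 2. All 1922 had both KI libraries above both B6 libraries. In reads, the medians were 29 and 32 in B6 and 157 and 163 in KI. The uncalled sites held 2.60 and 2.55 CPM in B6 and 2.97 and 2.98 CPM in KI, so that in B6 the KI-higher sites were the lower kind and in KI the higher kind. Distal sites of the other states stood above both kinds in B6, at 3.52 and 3.84 CPM. Among all 5802 sites, 3185 had both KI libraries above both B6 libraries and 94 the opposite.

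**Figure D2:**
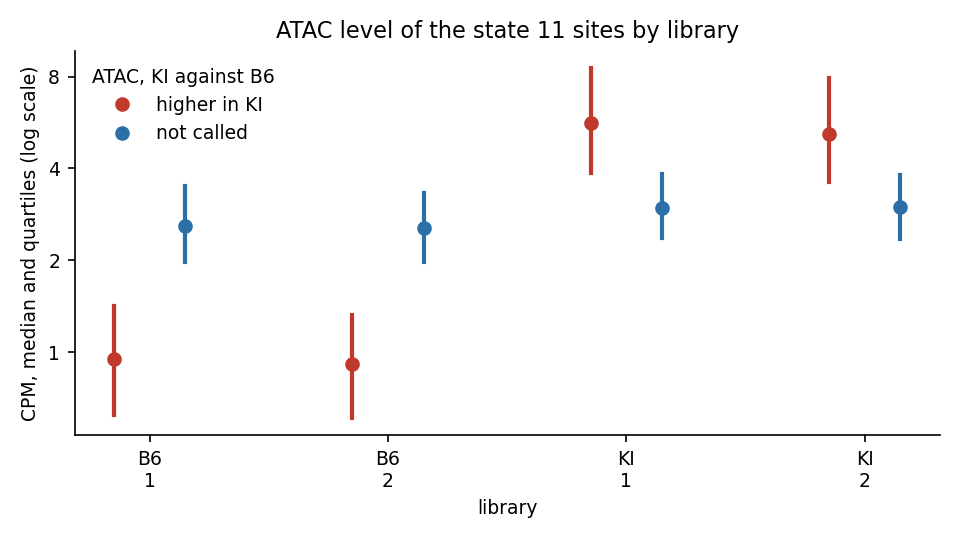
ATAC level (CPM, log scale) of the state 11 sites in each library; points are medians over sites and bars the quartiles, for the 1922 sites called higher in KI and the 3880 not called. The first kind moves from 0.953 and 0.918 in B6 to 5.62 and 5.18 in KI, while the second stays between 2.55 and 2.98.

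The share of KI-higher sites was not highest in state 11. It was 33.6% of 1516 distal sites in state 6, 36.7% of 950 in state 8, 45.2% of 1015 in state 9 and 45.5% of 156 in state 10. In states 1 to 5 it ran from 0.306% to 5.0%, and in state 7 it was 6% of 150 sites. By number, state 11 held 1922 of the KI-higher distal sites and the other 10 states together 2016. These differences between states were not tested.

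**Figure D3:**
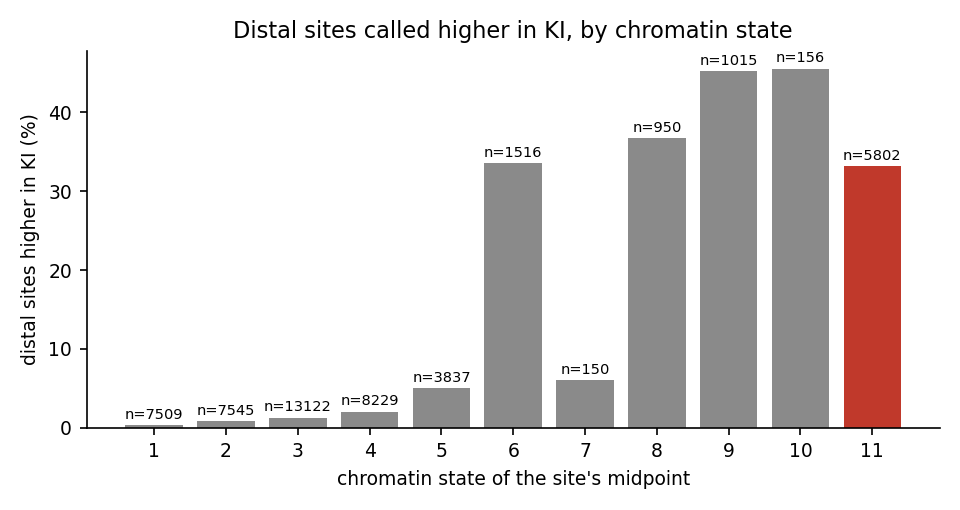
Share of distal sites called higher in KI (%), by the chromatin state of the midpoint, with the number of sites above each bar. State 11 (33.1% of 5802) lies near state 6 (33.6%), below states 8, 9 and 10 and above states 1 to 5 and 7.

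At the border of the rule, the values were as follows. Of 121 state 11 regions over 500 and up to 1000 bp from a TSS, just outside the rule, 47 were higher in KI (38.8%), and of 130 over 1000 and up to 1500 bp, just inside it, 42 were (32.3%). State 11 regions with a HELLS peak and no DMC1 peak, which the rule leaves out, numbered 564. All 564 were higher in KI, with median levels of 1.35 and 1.29 CPM in B6 and 13.0 and 12.1 CPM in KI and a median log2 fold change of 3.19. Their median width was 958.5 bp, against 581 bp for the KI-higher sites and 437 bp for the uncalled ones. The HELLS peaks were called in KI testis, so these values describe regions chosen in KI.

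Among the single sites, 9 of the 10 with the highest mean level were KI-higher, and 9 of the 10 lay in introns. The highest was a site of 2473 bp in an intron of Dscam, which encodes an adhesion molecule of the immunoglobulin family (chr16:96817679-96820151). It held 12.0 and 9.12 CPM in B6 and 58.9 and 48.2 CPM in KI, a log2 fold change of 2.35 ± 0.18 (SE, adjusted p = 1.67e-06). The B6 and KI libraries did not overlap, and both B6 libraries were far above the B6 medians of either kind of site.

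Other sites of this top 10 had lower B6 values. A site in an intron of Ptprn2, a phosphatase-like membrane protein of secretory vesicles (chr12:116565276-116567128), held 3.25 and 3.47 CPM in B6 and 46.1 and 37.9 CPM in KI. The intergenic site nearest to Prlhr, the receptor of prolactin-releasing peptide, lay 92259 bp from its TSS (chr19:60375276-60376813) and held 1.58 and 1.63 against 46.9 and 38.4 CPM. This was the largest log2 fold change among the sites, 4.73 ± 0.20 (SE), and the lowest p (adjusted p = 2.82e-07).

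Introns of Osbp2, an oxysterol-binding protein, Plxna2, a plexin receptor of semaphorins, Itgb8 and Itga7, an integrin beta and an integrin alpha chain, and Socs6, a suppressor of cytokine signalling, held 5 more KI-higher sites of the top 10. Their B6 levels lay between 2.49 and 7.2 CPM and their KI levels between 29.0 and 40.7 CPM, with no overlap in any of them, and their log2 fold changes between 2.40 (Osbp2) and 3.80 (Socs6). The uncalled site of the top 10 lay in an intron of Camta1, a calmodulin-binding transcription activator (chr4:151603947-151605370). It held 19.4 and 11.8 CPM in B6 and 25.8 and 22.1 CPM in KI and did not pass the test (log2 fold change 0.62 ± 0.21, adjusted p = 0.121). Dnah11, an axonemal dynein heavy chain, completed the 5 sites with the lowest p, behind Prlhr, Plxna2, Socs6 and Ptprn2: its intronic site (chr12:117987183-117988260) held 1.31 and 1.41 CPM in B6 and 22.7 and 22.1 CPM in KI, a log2 fold change of 4.04 ± 0.21.

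Few sites lay at genes of the 9 lists of cell type, lineage and imprinted genes, and no list was tested. No site was assigned to a gene of the blood and macrophage list, and 1 each to the spermatogonial list (Uchl1, not called) and the meiotic prophase list (Hormad2, not called). The genes of the pachytene and spermatid list had 3 sites, of which 2 were higher in KI: one in an intron of Spag16, an axonemal protein (1.81 and 1.18 CPM in B6, 13.6 and 11.8 in KI), and one nearest to Mael, a piRNA pathway protein (1.02 and 0.659 CPM in B6, 5.94 and 5.14 in KI). A site in an intron of Piwil1, a piRNA-binding protein of pachytene cells, held 4.60 and 4.24 CPM in B6 and 5.23 and 5.62 in KI and was not called.

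Of 4 sites at Sertoli cell genes, 3 were higher in KI, all 3 at Fshr, the receptor of follicle-stimulating hormone. The strongest, in an intron, held 1.51 and 1.09 CPM in B6 and 8.91 and 7.65 in KI. Near Wt1, a transcription factor of Sertoli cells, the site held 4.57 and 3.35 CPM in B6 and 4.94 and 4.38 in KI and was not called. Of 3 sites at Leydig cell genes 1 was higher in KI, 50553 bp from the TSS of Lhcgr, the receptor of luteinising hormone, with 1.94 and 1.03 CPM in B6 and 16.9 and 15.4 in KI. The list of peritubular, stromal and endothelial genes had 13 sites with 3 higher in KI, 1 of them 204997 bp from Cdh5, the endothelial cadherin. The list of neural and other silent lineage genes had 31 sites, 6 of them higher in KI (19.4%), where 33.1% of all state 11 sites were. Its highest 3, in introns of Nrxn3, a neuronal adhesion protein, and beside Dlg2, a synaptic scaffold, were uncalled, with 3.94 to 8.75 CPM in B6 and 4.73 to 8.02 CPM in KI. Imprinted genes had 7 sites with 3 higher in KI, including one 17248 bp from the TSS of Igf2, an insulin-like growth factor (0.986 and 1.23 CPM in B6, 13.0 and 10.7 in KI), and one in an intron of Kcnq1, a potassium channel (1.15 and 0.889 against 4.62 and 6.00). The highest imprinted-gene site, in an intron of Grb10, a signalling adaptor, held a CTCF core and 6.31 and 8.49 CPM in B6 against 8.23 and 5.72 in KI.

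The 2 kinds of site differed in which other region tables listed them. Regions of the H3K9ac table overlapped 98.6% of the KI-higher sites (1895; exact 95% binomial interval 98.0% to 99.1%) and 7.58% of the uncalled sites (294; 6.76% to 8.46%). The F1 table, which lists regions with allele counts, overlapped 97.9% of the KI-higher sites (97.1% to 98.5%) and 4.33% of the uncalled ones (3.71% to 5.02%). The ATAC table of the Hells libraries went the other way, with 3.95% of the KI-higher sites (3.13% to 4.92%) and 64.2% of the uncalled ones (62.7% to 65.7%). H3K4me3 regions overlapped 0.676% and 2.35%. For comparison, distal sites of the other states were in the H3K9ac table in 71.7% of cases, in the F1 table in 46.2%, in the Hells ATAC table in 78.1% and in the H3K4me3 table in 49.5%. Both the H3K9ac and the F1 table held 1875 of the KI-higher sites and 84 of the uncalled, and 1249 uncalled sites (32.2%) were in none of the 4 other tables. Intervals cover counting error only. The KI-higher kind was chosen by its level in KI. KI libraries are part of the H3K9ac table, the F1 carries the CAST allele of Prdm9, and no KI library is in the Hells ATAC table. Sites open only with that allele can thus enter the H3K9ac and F1 tables through it. The shares of the 2 kinds are therefore a description and no test of the split.

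Acetylation of H3K9, a mark of active chromatin, went with the same split of sites. In the H3K9ac table the rule left 2046 regions at state 11 sites, of which 1770 belonged to KI-higher and 259 to uncalled sites. One library stood apart before any test: B6 replicate 2 held a median of 1.95 CPM at these regions, where B6 replicates 1 and 3 held 0.516 and 0.620, and its total of 15058790 counts was near the 13195275 of the Spo11/Spo11 library. B6 replicates 1 and 3 also entered the segmentation, per the labels, and replicate 2 did not. At KI-higher sites the medians were 0.452, 1.95 and 0.522 CPM in B6 and 17.1 and 19 CPM in KI, with no overlap of the groups. At uncalled sites they were 1.23, 1.89 and 1.37 CPM in B6 and 2.31 and 2.36 in KI.

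**Figure D4:**
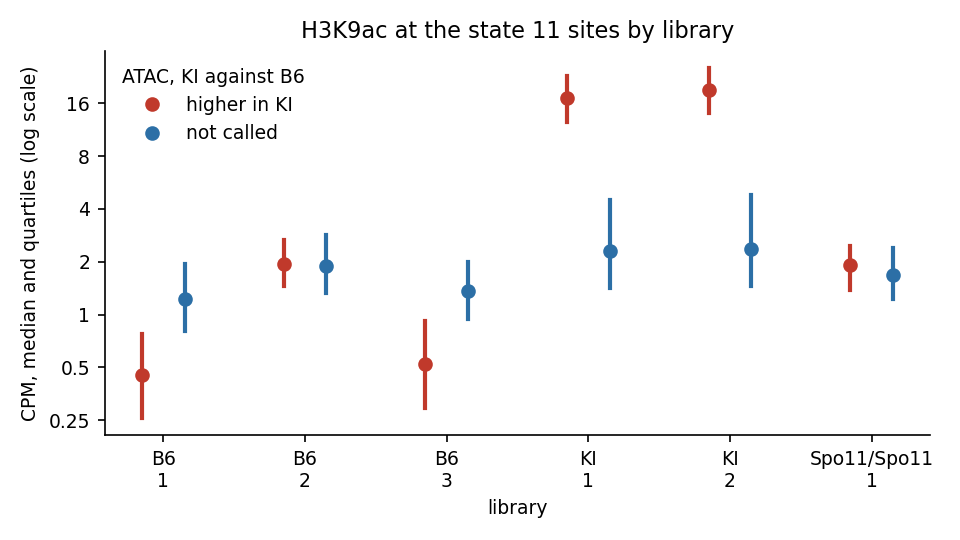
H3K9ac level (CPM, log scale) in each library at regions of state 11 sites; points are medians and bars quartiles, for 1770 regions at sites higher in KI and 259 at sites not called. KI libraries stand at 17.1 and 19 for the first kind, and B6 replicate 2 and the Spo11/Spo11 library (1.95 and 1.91) stand above B6 replicates 1 and 3.

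By edgeR, H3K9ac was called higher in KI in 1729 of the 2046 regions, where 12.1% of all regions tested were, and lower in 0, where 0.208% of all were. The median log2 fold change was 4.07 over the 2046 regions and -0.07 over all regions. Of the regions at KI-higher sites 1659 of 1770 were called higher, and of those at uncalled sites 55 of 259. A site low in H3K9ac in B6 can enter this table through KI, and B6 replicates 1 and 3 helped to define state 11. The count thus uses values of the rule and is a description of the sites that entered the table. Nothing is read from its distance to the share over all regions. The count of regions called higher moved with the libraries, as did calls over all regions. It was 340 without B6 replicate 3, where 1987 of all 91909 regions were called higher. Without B6 replicate 1 it was 1289, where 7029 of all 91834 were, and without B6 replicate 2 it was 1898, where 26360 of all 91907 were. A fit without KI replicate 1 or KI replicate 2 leaves 1 KI library, so only its median log2 fold change is given: 4.12 and 3.95. The 1729 calls rest on both KI libraries and were not kept with 1.

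The called site with the lowest p was intergenic, 9441 bp from Gm29676 (chr13:44289675-44290104), with H3K9ac at 0.645, 0.756 and 0.587 CPM in B6 and 20.4 and 19.7 CPM in KI, a log2 fold change of 4.93 ± 0.20 (SE, adjusted p = 0.0045). Introns of Nfia, a nuclear factor I transcription factor, and Scn10a, a sodium channel, and intergenic sites nearest to AI427809 and Usp34, a ubiquitin hydrolase, followed, with H3K9ac log2 fold changes of 3.68 (Scn10a) to 4.73 (AI427809). Among the sites with the highest ATAC level, Ptprn2 went from 0.29, 2.33 and 0.261 CPM of H3K9ac in B6 to 42.1 and 42.7 in KI, and Plxna2 from 0.484, 2.08 and 0.554 to 43.7 and 44.1. The Dscam site was acetylated in B6 too, at 6.03, 10.3 and 6.20 CPM, against 48.8 and 52.6 in KI. The Camta1 site, uncalled by ATAC, rose in H3K9ac from 0.161, 0.693 and 0.359 CPM to 8.37 and 10.3 (log2 fold change 4.61 ± 0.54, adjusted p = 0.00882).

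In Spo11/Spo11 germ cells, which lack the enzyme that breaks DNA at recombination sites, no site was called against B6: 0 higher and 0 lower of 2046, where 0% and 0% of all regions were (105 of the sites and 3616 of all regions had an unadjusted p below 0.05, and DESeq2 called 0 higher and 1 lower among the sites). The median log2 fold change was 0.88, and 0.01 over all regions. Without B6 replicate 2 the median was 1.73 over the sites and 0.07 over all regions, and many sites and many of all regions were then called. That last comparison rests on the B6 libraries that entered the segmentation, which chose the sites, and is no test of them. The Spo11/Spo11 library had 1.91 CPM at KI-higher sites, as B6 replicate 2 had 1.95, and it was a single library.

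The 300 bases at the midpoint separated the 2 kinds of site as well. The CTCF core occurred in 24.5% of the uncalled sites (950 of 3880; 23.1% to 25.9%) and in 1.98% of the KI-higher sites (38 of 1922; 1.4% to 2.70%). It occurred in 8.38% of windows of the same length over all autosomal regions and in 9.84% over the distal sites of the other states. In uncalled sites 86.1% of the matches lay within 50 bp of the midpoint, and in KI-higher sites 31.6%. Uncalled sites with the core had 3.02 and 2.41 CPM in B6 and 3.19 and 3.22 in KI, those without it 2.46 and 2.61 in B6 and 2.94 and 2.89 in KI, and 51.6% and 68.3% of them were in the Hells ATAC table. At the 2 sites printed above, Gm30790 held 10.4 and 14.5 CPM in B6 and 13.0 and 10.7 in KI, and 4930591A17Rik 13.0 and 6.68 against 13.8 and 11.2. Neither was called, and at both the strains overlapped.

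Among all 2080 words of 6 bases, counted once per site with both strands together, GTCACA had the largest difference in share. It was present in 37.2% of the KI-higher sites, 19.2% of the uncalled sites and 17.1% of all autosomal windows, and in 38.5% of the 564 state 11 regions with a HELLS peak. Other words that led were AAGTCA (30.4% against 17.8%) and AGGTCA (34.1% against 22.8%), which share letters with it. On the other side stood AGAGGG (23.6% of KI-higher and 39.1% of uncalled sites), CAGCAG (29.8% and 44.6%) and GAGGGC (13.6% and 27.4%). AGAGGG and GAGGGC overlap the CTCF core in the printed Gm30790 site. These words were chosen after their shares were seen, and no test goes with them. GTCACA matches were most frequent around the midpoint of KI-higher sites, with 4.99 per 100 sites in the 25 bp just before it and 2.50 and 2.34 in the outermost bins, while the uncalled sites stayed between 1.47 and 2.11 per 100 in every bin.

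**Figure D5:**
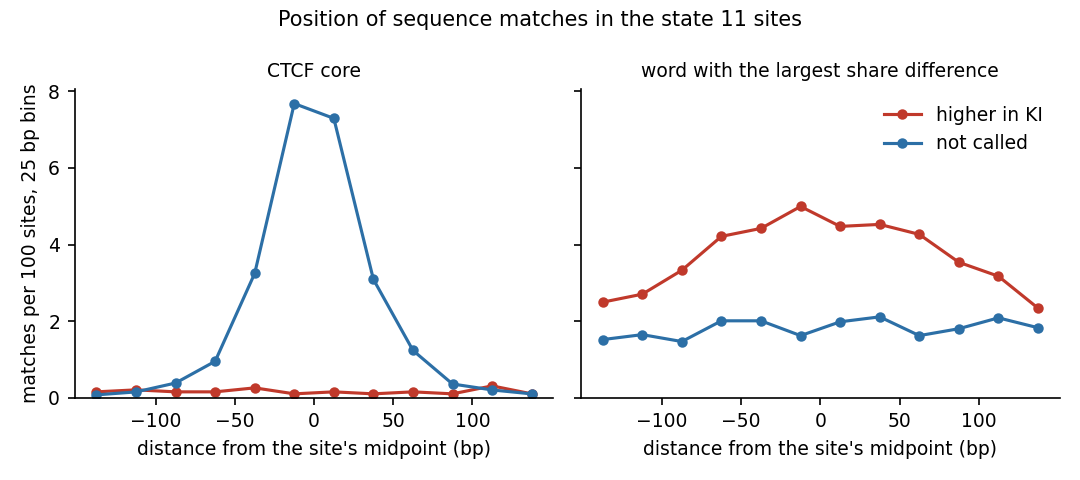
Matches per 100 sites in bins of 25 bp by distance from the midpoint (bp), for the CTCF core and for the 6-base word with the largest share difference, in sites higher in KI and sites not called. The core peaks at the midpoint of uncalled sites (7.68 and 7.29 per 100 in the 2 central bins), and the word has a broad maximum of 4.99 in sites higher in KI.

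The other motifs were searched as exact matches on both strands. Motifs common at promoters were the GC box of SP factors (GGGCGG), the CCAAT box of NF-Y, the ETS motif (CCGGAAG), the NRF1 motif (GCGCATGCG) and the CRE of CREB factors (TGACGTCA). Motifs of testis regulators were those of DMRT1 (ACANTGT), of GATA factors (AGATAA) and of the nuclear receptors NR5A (TCAAGGTCA). The rest were the E-box of bHLH proteins (CACGTG), the AP-1 motif (TGANTCA) and an RFX motif (GTTNCCATG). NR5A contains the word AGGTCA, and the CTCF core shares GGGC with the GC box where its free bases allow. The GC box was in 4.07% of state 11 sites and in 19.3% of all autosomal windows, and ETS in 1.15% and 4.51%. CCAAT was in 35.0% and 30.4%, GATA in 13.9% and 15.8%, DMRT1 in 12.9% and 15%, and AP-1 in 11.0% and 9.10%. The E-box was in 4.08% and 5.81%, the RFX motif in 2.02% and 1.82%, NR5A in 1.00% and 1.53%, CRE in 0.259% and 0.73% and NRF1 in 0.0517% and 0.689%. Between KI-higher and uncalled sites the GC box differed most in ratio among these (2.39% and 4.90%), and the rest lay within 5 percentage points of each other. GC content was 46.7% in KI-higher and 48.3% in uncalled windows (medians), and repeats masked in the reference covered 13.9% and 12.3% on average.

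In the F1 hybrid, both genomes share one nucleus, and more regions at these sites were called higher on the B6 allele than on the CAST allele, while most were called on neither. The sites were found in B6 and KI, both on the B6 background, so that sites open on the B6 sequence were chosen in advance. This choice could favour the B6 allele, which was not tested. The counts are therefore a description. Of 1843 regions with at least 20 allele counts, 444 were called higher on the B6 allele, where 8.22% of all regions tested were, and 59 higher on the CAST allele, where 5.53% of all were (edgeR with the library as a block). The median log2 ratio of B6 to CAST was 0.29, against 0.03 for all 70654 regions. Summed over the regions at KI-higher sites, the B6 allele took 58.2% of the ATAC counts in F1 replicate 1 and 57% in replicate 2, where it took 51.1% and 50.9% over all regions. At the 140 regions of uncalled sites the tilt was the other way, with 44.6% and 46.0%. H3K9ac of the F1, a single library with no replicate check, gave 61.6% at KI-higher and 38.4% at uncalled sites, and 51.9% over all regions. Few uncalled sites were in this table.

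Some single sites were strongly tilted to one allele. A site in an intron of Acot7, an acyl-CoA thioesterase (chr4:152215740-152216498), had 511 B6 and 45 CAST counts in F1 replicate 1 and 488 and 43 in replicate 2, a log2 ratio of 3.50 ± 0.14 (SE, adjusted p = 9.76e-13). Sites in introns of B230118H07Rik, Zfp407 and Tns3, a focal adhesion protein, and nearest to Rasl11a, a small GTPase, followed with log2 ratios of 2.48 (Zfp407) to 2.82 (B230118H07Rik and Rasl11a). On the CAST side, an intergenic site 9004 bp from Tnfrsf14, a receptor of the TNF family (chr4:154918887-154919259), had 54 B6 and 1521 CAST counts in replicate 1 and 65 and 1470 in replicate 2, a log2 ratio of -4.65 ± 0.10, with H3K9ac counts of 15 and 17. Gm49164, Ndst3, a heparan sulfate sulfotransferase, Gm48447 and Polg, the mitochondrial DNA polymerase, marked the other 4, with log2 ratios of -1.47 (Polg) to -3.23 (Ndst3). Of the 10 sites, only the one near Polg was uncalled between KI and B6. The sites with the highest ATAC level were not all tilted one way: Dscam had 638 B6 against 377 CAST counts and 496 against 294, and Ptprn2 435 against 534 and 332 against 401.

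Loss of Hells was not accompanied by a called change of openness. Of the regions at state 11 sites in the Hells ATAC table, 2546 were tested, of which 75 belonged to KI-higher sites. None was called higher in Hells CKO than in Hells wt, where 0% of all regions were, and none lower, where 0.382% of all were (edgeR; 6 of the sites and 1468 of all regions had an unadjusted p below 0.05, and DESeq2 called 0 of the sites in each direction and 421 of all regions lower). With the library number series of the labels as a block, 0 sites were called in each direction, and 1197 of all regions were lower. Regions with a DMC1 or HELLS peak, which the rule leaves out of the sites, stayed in the background. Nothing is thus read from the distance between the shares. The medians were 3.29, 3.76 and 3.68 CPM in the 3 Hells CKO libraries and 3.24 and 3.70 in the 2 Hells wt libraries, and the groups overlapped. On the log2 scale the median fold change was 0.05, with quartiles at -0.10 and 0.21, and it was 0.25 without Hells wt replicate 2. At Camta1, Hells CKO had 11.6, 11.3 and 8.98 CPM and Hells wt 12.2 and 8.82.

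H3K4me3, the mark of promoters and of PRDM9 sites, was found at few of these sites, and H3K4me3 of KI was not analysed here. Of the 5802 sites 104 overlapped an H3K4me3 region (1.79%; 1.47% to 2.17%), and 98 regions were kept, with medians of 1.41, 1.81 and 1.72 CPM in Hells CKO, 1.84 in Hells wt, 1.53 in Spo11/+ and 1.52 and 1.36 in Spo11/Spo11. Of these 98, 0 were called higher in Hells CKO than in Hells wt, where 0.0279% of all regions were, and 3 lower, where 11.7% of all were. The 3 lay 34724 bp from the TSS of Plxna2 outside the gene (chr1:194839237-194839630), in an intron of Tbcd, a tubulin folding cofactor (chr11:121470663-121471230), and in another intron of Ptprn2 (chr12:117035166-117035720), and all 3 were uncalled between KI and B6. At the Plxna2 site H3K4me3 was 0.28, 0.774 and 0.11 CPM in Hells CKO, 3.19 in Hells wt, 5.45 in Spo11/+ and 4.25 and 4.11 in Spo11/Spo11, a log2 fold change of -3.14 ± 0.61 (SE, adjusted p = 0.0053). The Tbcd and Ptprn2 sites fell by 2.97 and dropped by 2.38 on the log2 scale, and in all 3 the CKO libraries lay below every other library. The Hells wt group was 1 library, assumed to vary like the others. Regions with a DMC1 or HELLS peak were left out of the sites but not of the background, so nothing is read from the distance between the shares. The count of lower sites was 1 without Hells CKO replicate 3, where 6891 of all regions were lower. It was 6 with the mean of Hells wt and Spo11/+ as the control, where 12460 of all regions were.

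Between Spo11/Spo11 and Spo11/+, none of the 98 regions was called higher, where 0% of all regions were, and none lower, where 0% of all were (edgeR; 1 of the sites and 159 of all regions had an unadjusted p below 0.05, and DESeq2 called 0 in each direction among the sites). The median log2 fold change of the sites was -0.05, and that of all regions -0.02.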

How the data were processed

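The authors deposited tables of raw read counts per region for ATAC-seq, H3K9ac and H3K4me3, and a table of estimated counts per allele for the F1 hybrid, which were rounded to whole numbers here. They also deposited a segmentation into 11 states and lists of DMC1 and HELLS peaks. The submitters' processing notes name BWA 0.7.15, Bowtie 0.12.9, CASAVA, MACS 1.4.2 and mm10, without their roles. Column names of the B6 and KI ATAC libraries give the strain and no sample, so their replicate numbers only name columns. Counts of 10 columns that match no sample were not used, and 56 duplicated regions of the Hells ATAC table were removed.

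Distances to a TSS used GENCODE M21, and sequences came from RefSeq GRCm38. Each whole table was fitted with edgeR 4.0.16 (R 4.3.3; quasi-likelihood test, TMM, filterByExpr), with p-values adjusted over all regions tested. For the F1, regions needed 20 allele counts in sum, the library was a block and no TMM was applied between alleles. CPM values are scaled by TMM. In the other tables a region was taken where it overlapped a site by at least 1 bp. The alternatives were DESeq2 1.42.0, other scalings and filters, stricter rules for the sites and leaving out each library. The fits were tested on simulated data. Intervals are exact binomial.

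Named sites are the 10 with the highest mean CPM, the 5 with the lowest p per comparison and direction, and up to 3 per gene list, by level. One named site is not reported here. A site inside a gene was assigned to it, any other to the nearest TSS. The members and the 9 gene lists (170 genes) were chosen with earlier results of these data known.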

Additional observations from a re-analysis of the deposited data

How the results depend on the processing

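By replicate number, no paired analysis was possible because these numbers are in accession order and pair nothing. For ATAC of Hells CKO, a fit with the library number series of the labels as a block gave 0 higher and 0 lower sites and a median of 0.05, with 95 sites at an unadjusted p below 0.05 (6 without the block) and 14 higher and 1197 lower of all regions (0 and 363 without it). Where leaving out a library left 1 in a group, it was assumed to vary like the other groups. For ATAC of KI against B6, leaving out 1 library gave 1850 to 2448 higher sites, 0 to 156 lower sites and a median log2 fold change of 0.38 to 0.55; the median was 0.30 with RLE size factors and 0.30 with DESeq2, 0.41 with library size alone and 0.45 for sites at least 90% in state 11. The ATAC fits without 1 library leave 1 in that group, so their counts of called sites do not measure how many sites changed. Calls over all regions moved in these fits too, in both directions. For H3K9ac of KI against B6, leaving out 1 B6 library gave 340 to 1898 higher and 0 to 9 lower, and calls over all regions moved too. The calls of higher regions rest on both KI libraries. Leaving out any 1 library gave a median of 3.73 to 4.92, and library size alone gave 1 lower. For H3K9ac of Spo11/Spo11 against B6 the ranges were 0 to 1591 higher, 0 to 5 lower and 0.55 to 1.73, and DESeq2 gave 1 lower. The 1591 and the 5 came only from the fit without B6 replicate 2, in which many of all regions were called too. That fit sets 1 Spo11/Spo11 library against the B6 libraries that entered the segmentation, which chose the sites. It is thus no test of the sites. Over all leave-outs for ATAC of Hells CKO the median ran from -0.041 to 0.25, so that its sign was not stable. Without 1 Hells CKO library the ranges were 0 to 0 higher and 0 to 1 lower, where 0 to 1 and 0 to 626 of all regions were. For H3K4me3 of Hells CKO without 1 CKO library, 0 to 1 were higher and 1 to 4 lower, and the median was -0.15 to -0.08. Of all regions, 6 to 2542 were then higher and 6891 to 10718 lower. With the mean of Hells wt and Spo11/+ as the control, 1 was higher, 6 were lower and the median was 0.09 (0.087). In that fit 551 of all regions were higher and 12460 lower. With library size alone the median was -0.32. For H3K4me3 of Spo11/Spo11 the median ran from -0.09 to -0.02. In the F1 the median was 0.32 to 0.37 with 1 library. An overlap of 50% of the site gave 36.0% in the H3K9ac and 1.26% in the H3K4me3 table, and the CTCF core was in 18.4% of whole regions. The cause was not tested for any of these. B6 levels of KI-higher sites rest on medians of 29 and 32 reads, which limits the precision of single folds.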
